A study of Mus musculus with 38 samples.

Results

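The expression of forestomach RNA was compared between MutaMouse given the lower doses of dibenz(a,h)anthracene (DBahA), groups D1 and D2, and vehicle controls, group D0. The members were chosen by sample title as the forestomach arrays of D1 (6.25 mg/kg-bw/day, 5 mice), D2 (12.5 mg/kg-bw/day, 4 mice) and D0 (5 mice), which are 14 of the 38 arrays of the series. All mice were males of this transgenic strain, which carries a reporter gene for mutations, about 10 weeks old and housed 1 to a cage on a light and dark cycle. All were gavaged daily for 28 days with olive oil, which carried DBahA in D1 and D2 and nothing else in D0, and the organs were collected 72 h after dosing ended. The RNA came from randomly cut pieces of tissue, and the labels do not give the time of day at which tissues were collected. Forestomach RNA was labelled with Cy5 and hybridised to an Agilent mouse array beside a universal reference RNA, pooled from 11 mouse cell lines, labelled with Cy3. Each value below is log2(Cy5/Cy3) of a probe, the level in the tissue relative to that reference, and each difference between groups is a log2 fold change. The same 14 mice were also measured in lung, which is used here only for contrast.

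DBahA is a polycyclic aromatic hydrocarbon. Compounds of this class bind the aryl hydrocarbon receptor (AhR), which with its partner Arnt switches on the genes of the enzymes that oxidise them, Cyp1a1 and Cyp1b1 among them. Some of the oxidised products bind to DNA, and the tumour suppressor p53 answers damaged DNA by raising genes that halt the cell cycle (Cdkn1a), limit p53 itself (Mdm2) or promote cell death (Bax). The forestomach of the mouse is a pouch lined by keratinised squamous epithelium, which meets the acid-secreting glandular stomach at a ridge. Peripheral tissues also hold a circadian clock, in which Arntl and Clock drive the genes Per, Nr1d1, Nr1d2 and Dbp, whose products feed back on the clock or pass its rhythm to other genes.

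The arrays carried the squamous markers that the label of the tissue calls for. The basal keratin gene Krt5, the keratin genes Krt4 and Krt13 of the upper layers and the cornified envelope gene Lor were well above background on all 14 arrays, as was the smooth muscle gene Myh11. The mean over the 10 genes of differentiated squamous epithelium ranged from 3.97 to 4.48 in D0 and from 3.83 to 4.85 at the lower doses. The share of glandular stomach differed much more between mice. It was followed by the glandular score, the mean log2(Cy5/Cy3) of Atp4a and Atp4b, which encode the proton pump of parietal cells, and Cblif, which encodes gastric intrinsic factor. The score was between -0.05 and 0.10 on 5 arrays (mice 2 and 5 of D0, 8 and 9 of D1 and 15 of D2) and between 5.92 and 7.55 on the other 9, with no array in between. Its mean was 4.12 ± 3.73 (SD, n = 5) in D0 and 4.16 ± 3.1 (SD, n = 9) at the lower doses, a difference of 0.04 (exact permutation test over 2002 splits of the mice, two-sided p = 0.986). Arrays with and without glandular stomach were thus present in every dose group, and the score was a covariate in every forestomach fit. In such bulk samples, fewer cells of a type and less RNA per cell cannot be told apart.

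**Figure D1:**
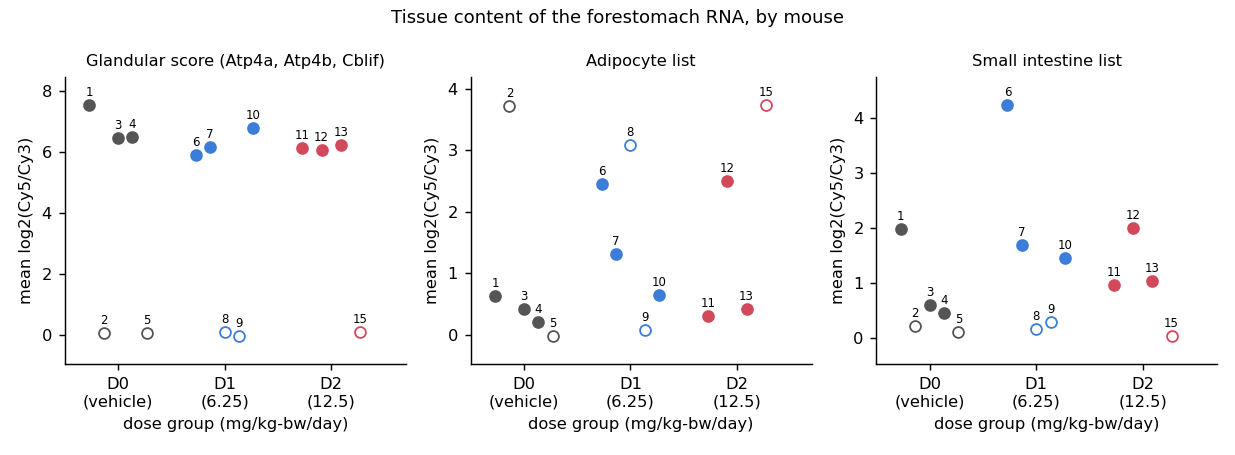
Cell-type content of the 14 forestomach arrays by dose group, as mean log2(Cy5/Cy3) of marker genes with 1 point per mouse, mouse numbers beside the points and open points for arrays with a low glandular score. The glandular score falls into a low cluster of 5 arrays, up to 0.10, and a high cluster of 9 arrays, from 5.92, while the adipocyte score spans -0.03 to 3.74.

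No probe was called between the lower doses and D0 in the forestomach. Of 55681 probes tested with limma, 0 (0%) had a Benjamini-Hochberg adjusted p of at most 0.05 together with a fold change of at least 1.5, and 0 passed the adjusted p alone. The smallest adjusted p from limma was 1 after rounding, and 1694 probes, or 3.04%, had an unadjusted p under 0.05. The deposited value table gave 0 calls as well, and there 1710 probes had an unadjusted p below 0.05. Of the 22545 probes that were well above background on at least 7 of the 14 arrays, 17449 (77.4%) had a 95% interval of the difference that stayed within 1.5-fold either way, and 21261 (94.3%) one that stayed within 2-fold. Their median standard error was 0.134 on the log2 scale, and 194 of them had an estimated difference of 1.5-fold or more without passing the test.

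The doses were also compared with D0 one at a time, and these comparisons share the D0 mice. With limma, 0 probes (0%) were called at D1, where 2077 had an unadjusted p under 0.05, and 0 (0%) at D2, where 1494 did. D2 against D1 gave 0 calls (0%) and 1769 probes at that level. The highest dose, D3 (25 mg/kg-bw/day), did not differ from the lower doses by this test either, with 0 calls (0%) by limma over 18 replicates, where 1823 probes passed an unadjusted p of 0.05. In that fit, 2 arrays labelled as mouse 18 were averaged to 1 replicate, although 1 of them had a low and the other a high glandular score.

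The p53 response was examined through 24 target genes, all of them measured. In the forestomach 0 of 24 were called (background 0%), 18 lay above D0 and 6 below, and 1 had an unadjusted p under 0.05. Over all 20018 genes 52.7% lay above D0. Their median difference was 0.08, with a range from -0.20 to 0.40, against a median of 0.01 over the 20018 genes with a symbol. The list median ran from 0.01 to 0.37 over the alternatives, the highest with median centring of the arrays in place of loess, which moved the median of bright probes by 0.25. Cdkn1a encodes p21, an inhibitor of cyclin-dependent kinases and a direct target of p53. It was at 0.84, 0.77, 0.61, 0.59 and 0.74 in the D0 mice, at 0.68, 0.48, 1.02, 0.72 and 0.75 in D1, and at 0.80, 0.77, 0.47 and 0.63 in D2. The groups overlapped throughout, and the highest and the lowest value of all both belonged to the lower doses. The difference was -0.01 with a standard error of 0.0865 and a 95% interval from -0.20 to 0.17 (limma, adjusted p = 1), so the interval of this fit leaves out a change of 1.5-fold either way. With median centring the difference of Cdkn1a was 0.40, also without a call.

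Other members of the list differed from D0 by between -0.20 and 0.40, with intervals of different width. Mdm2, the ubiquitin ligase that removes p53, differed by 0.0046 (95% interval -0.23 to 0.24). Trp53inp1, a cofactor of p53 in cell death, differed by 0.04 (95% interval -0.20 to 0.28). For both, as for Cdkn1a, a change of 1.5-fold lay outside the interval. It lay inside for Ccng1, a cyclin gene used as a marker of p53 activity, at 0.40 (95% interval -0.07 to 0.87), and for Phlda3, an inhibitor of Akt signalling, at 0.02 (95% interval -0.56 to 0.60). In both genes the D0 group was widened by mouse 1, whose Ccng1 level was -0.01 where the other D0 mice were between -1.29 and -1.09, and whose Phlda3 level was -0.85 where the others were between 0.82 and 1.25. As each mouse in turn was left out, the difference ran from 0.31 to 0.59 for Ccng1 and from -0.31 to 0.23 for Phlda3, without a call. Mouse 1 also had the highest glandular score of the 14 arrays, 7.55. Bax, which encodes a pore-forming protein of the mitochondrial death pathway, was the member with an unadjusted p under 0.05, with a difference of 0.30 (95% interval 0.01 to 0.59, limma, adjusted p = 1). Its D0 values were -1.34, -0.49, -0.98, -0.96 and -1.11 and its lower-dose values ran from -0.99 to -0.20 with a median of -0.70, so the ranges overlapped. Gdf15, a secreted stress cytokine, was well above background on only 3 of 5 D0 and 6 of 9 lower-dose arrays and differed by -0.18 (95% interval -0.79 to 0.44).

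The same mice gave a different picture in lung. Of 55681 probes, 137 (0.246%) were called between the lower doses and D0 in lung by limma, 134 higher and 3 lower, from 104 genes. Among the p53 targets 21 of 24 lay above D0 and 13 were called higher, with a list median of 0.62. Cdkn1a in lung lay between -1.27 and -0.73 in D0 and between 0.88 and 2.07 at the lower doses, a rise of 2.43 (95% interval 2.06 to 2.80, limma, adjusted p = 9.96e-07). The D0 lungs thus started well below the D0 forestomachs, whose Cdkn1a level was 0.71 ± 0.11 (SD, n = 5) against -1.0 ± 0.25 (SD, n = 5) in lung, and the lower-dose lungs at 1.44 ± 0.41 (SD, n = 9) ended above every group of the forestomach.

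The difference between the tissues was tested itself, as the lung response minus the forestomach response. Limma called 56 of 55681 probes (0.101%), all 56 with the higher response in lung, from 44 genes. Among the p53 targets 6 of 24 were called, namely Cdkn1a, Gdf15, Phlda3, Aen, Trp53inp1 and Bax, and the median of the list was 0.59. The response of Cdkn1a was higher in lung by 2.44 (95% interval 2.01 to 2.88, limma, adjusted p = 3.2e-07), and that of Gdf15 by 3.19 (95% interval 2.40 to 3.98, adjusted p = 0.000107). Phlda3 differed by 1.60 (adjusted p = 0.0194), Aen, a nuclease gene of the p53 death pathway, by 1.20, Trp53inp1 by 1.10 (adjusted p = 0.0021; 0.63 and adjusted p = 0.0629 on its other probe, not called) and Bax by 0.90 (adjusted p = 0.019). Ccng1 and Mdm2 rose in lung, by 1.62 and 0.61, but their difference between the tissues did not pass the test, at 1.22 (limma, adjusted p = 0.136) and 0.60 (adjusted p = 0.262). For the lung minus forestomach response to lower doses the number of probes called was 87 with mouse as a random replicate block, 2 with median centring of the arrays in place of loess and 13 without D0 mouse 4. With the loess values, the differences of Cdkn1a, Gdf15 and Trp53inp1 were called without any 1 of the 14 mice.

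**Figure D2:**
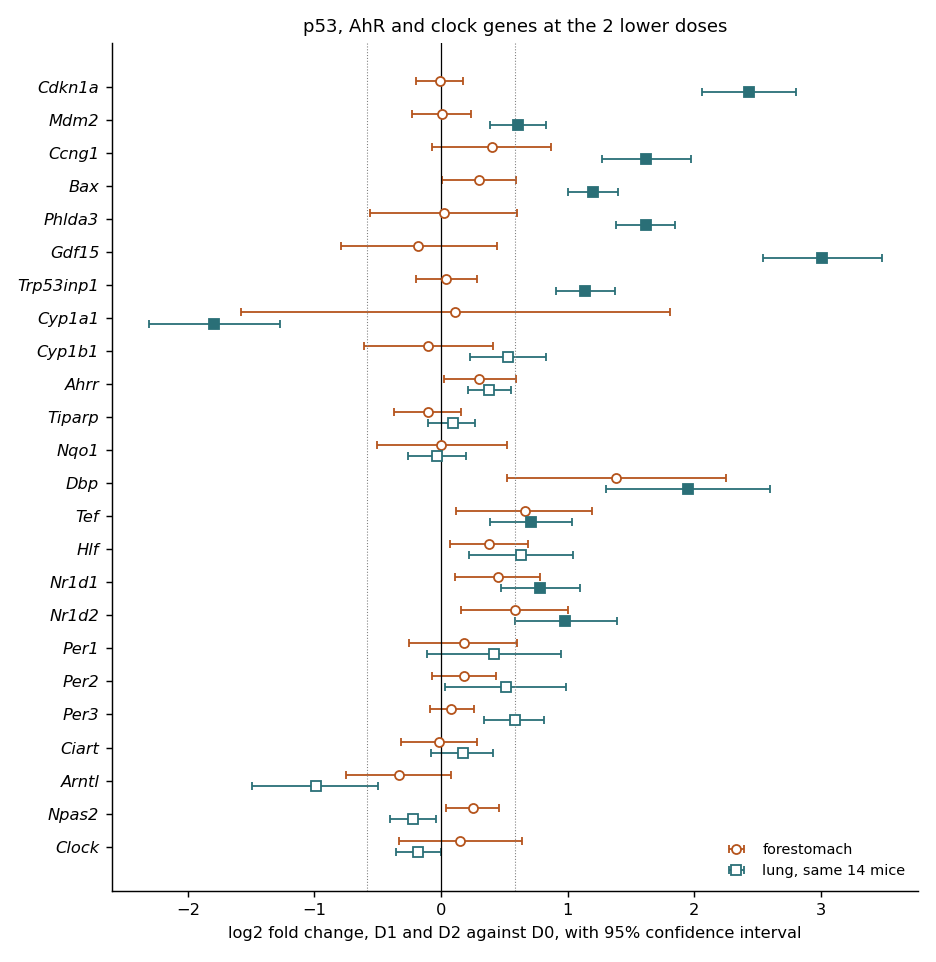
Log2 fold change of the lower doses against D0 for the 24 index genes in forestomach and lung of the same 14 mice, with 95% intervals, filled symbols for differences called by limma and dotted lines at 1.5-fold either way. Per2, Per3, Ciart and Npas2 were dim in D0 and are drawn as fitted, no forestomach symbol is filled, and Cdkn1a sits at -0.01 in forestomach and at 2.43 in lung.

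The AhR genes gave a second contrast between the tissues. In the forestomach 0 of 8 genes of the AhR list were called, 5 lay above D0 and 3 below, and the median was 0.01. The promoter of Cyp1a1, the cytochrome P450 gene most used as a readout of the receptor, is shown because its level set 2 mice apart. It is given from RefSeq on assembly GRCm38.p6, plus strand, chr9:57697363-57697662, from 250 bases before to 50 bases after the start, with the AhR core motif GCGTG in capitals. This motif was searched on both strands and occurs in 32.4% of 32851 mouse promoters of this length.
Cyp1a1: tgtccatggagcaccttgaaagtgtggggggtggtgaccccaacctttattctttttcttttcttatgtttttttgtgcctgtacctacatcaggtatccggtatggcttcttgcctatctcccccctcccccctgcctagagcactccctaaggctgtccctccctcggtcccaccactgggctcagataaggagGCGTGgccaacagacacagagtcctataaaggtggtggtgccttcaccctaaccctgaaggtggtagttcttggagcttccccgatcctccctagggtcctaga

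Cyp1a1 was at -0.23, 0.74, -0.03, 0.08 and 3.61 in the D0 mice, at 0.51, 0.49, 0.24, 0.92 and 0.33 in D1, and at 5.05, 0.08, 0.20 and 0.66 in D2. Mouse 5, a control, and mouse 11 of D2 stood far above the other 12, which lay between -0.23 and 0.92. The probe was well above background on only 2 of 5 D0 and 4 of 9 lower-dose arrays. The difference of Cyp1a1 between the groups was 0.11 with a wide 95% interval, from -1.58 to 1.81, and it ran from -0.44 to 0.81 as each mouse in turn was left out. Cyp1b1, which encodes the related enzyme, was also highest in mice 5 and 11, at 0.60 and 0.25 against -1.16 to -0.24 in the other mice, and differed by -0.10 between the groups (95% interval -0.61 to 0.41). The high control came from an array with a low glandular score (0.07) and the high D2 mouse from one with a high score (6.13). In lung, mouse 5 was at 2.45 and mouse 11 at 1.66 for Cyp1a1, within and at the top of their groups.

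**Figure D3:**
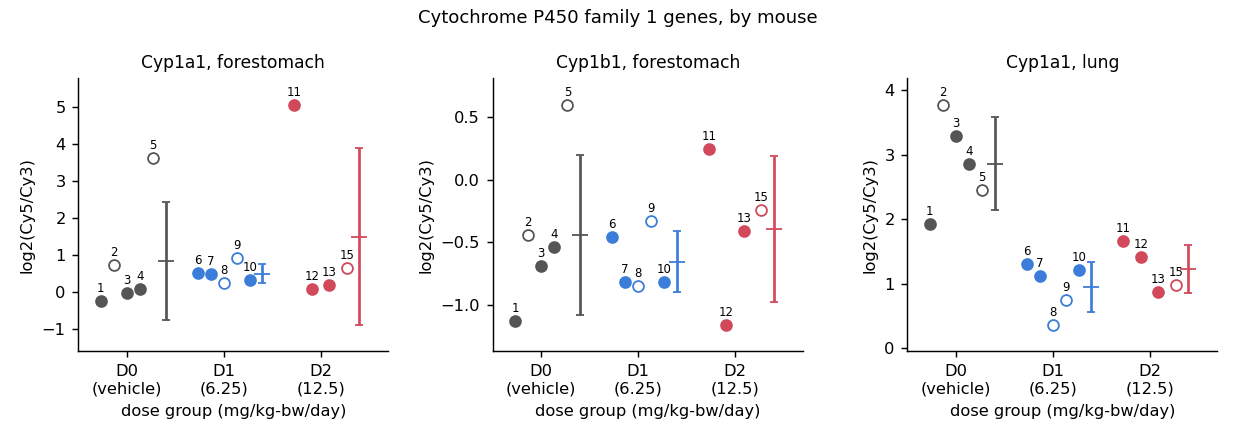
Log2(Cy5/Cy3) of Cyp1a1 and Cyp1b1 in forestomach and of Cyp1a1 in lung by dose group, with 1 numbered point per mouse, open points for mice with a low glandular score and bars for mean ± SD. Mice 5 and 11 stand apart for Cyp1a1 in forestomach, at 3.61 and 5.05. In lung the lower-dose mice lie between 0.36 and 1.66 and the controls between 1.93 and 3.77, and the share of lung probes that separate so was not counted.

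In lung, Cyp1a1 fell by 1.79 on the log2 scale at the lower doses (95% interval -2.31 to -1.27, limma, adjusted p = 0.00134). The difference between the tissues for Cyp1a1, -1.90 with a 95% interval from -3.66 to -0.14, did not pass the test (adjusted p = 1). Ahrr, the repressor of the receptor, differed by 0.30 in forestomach (95% interval 0.02 to 0.59, limma, adjusted p = 1) and was well above background on 2 of 5 D0 and 8 of 9 lower-dose arrays. Its D0 values ran from -0.22 to 0.24 and its lower-dose values from -0.21 to 0.68, which overlapped. Tiparp, a polymerase gene that the receptor induces, differed by -0.10 (95% interval -0.37 to 0.16), and Nqo1, a quinone reductase gene, by 0.0028 (95% interval -0.51 to 0.52). Nqo1 levels ran from 1.71 to 3.90 over the 14 mice, so the interval is much wider than that of Tiparp. Among the genes of the receptor complex the largest difference was that of the chaperone gene Hsp90ab1, at -0.30 (95% interval -0.74 to 0.14), and Arnt differed by 0.09 (95% interval -0.15 to 0.33).

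The clock genes were described in the same way. In the list of 10 clock genes that peak around the evening in mice, 0 were called, 9 lay above D0 and 1 below, and 5 had an unadjusted p under 0.05, with a median difference of 0.28 that ran from 0.11 to 0.72 over the alternatives. Over all 20018 genes 52.7% lay above D0 and 2.7% had an unadjusted p under 0.05. The list median was 0.24 at D1 and 0.47 at D2, against the same D0 mice. The promoters of 3 clock genes are shown to set the gene with the largest difference beside a gene with each clock motif, and were picked for this: Dbp (chr7:45704997-45705296, plus strand), Tef (chr15:81802423-81802722, plus strand, 1 of 2 starts in the table) and Per3 (chr4:151044616-151044915, minus strand), all from RefSeq on GRCm38.p6. Capitals mark the E-box CACGTG, the letters that the Arntl and Clock pair recognises, and the D-box TTATGTAA, the letters that Dbp, Tef, Hlf and Nfil3 recognise, each searched on both strands. The E-box occurs in 7.15% and the D-box in 0.938% of the 32851 promoters. Tef held 1 E-box, Per3 held 2 D-boxes, and neither set of letters was in the window of Dbp. Among the promoters not shown, Per1 held 1 E-box, and Hlf, Nr1d1, Nr1d2, Nfil3 and Arntl held neither motif.
Dbp: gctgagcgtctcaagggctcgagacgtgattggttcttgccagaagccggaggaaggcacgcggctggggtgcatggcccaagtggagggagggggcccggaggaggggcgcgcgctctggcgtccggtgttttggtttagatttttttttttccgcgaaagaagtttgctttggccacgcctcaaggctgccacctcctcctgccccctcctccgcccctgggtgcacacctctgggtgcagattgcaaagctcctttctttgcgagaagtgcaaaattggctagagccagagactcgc
Tef: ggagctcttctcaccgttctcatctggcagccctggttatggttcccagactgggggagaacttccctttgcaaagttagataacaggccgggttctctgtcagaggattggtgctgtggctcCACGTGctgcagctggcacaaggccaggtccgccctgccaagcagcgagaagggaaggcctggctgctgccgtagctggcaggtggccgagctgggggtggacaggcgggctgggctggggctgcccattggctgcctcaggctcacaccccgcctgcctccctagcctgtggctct
Per3: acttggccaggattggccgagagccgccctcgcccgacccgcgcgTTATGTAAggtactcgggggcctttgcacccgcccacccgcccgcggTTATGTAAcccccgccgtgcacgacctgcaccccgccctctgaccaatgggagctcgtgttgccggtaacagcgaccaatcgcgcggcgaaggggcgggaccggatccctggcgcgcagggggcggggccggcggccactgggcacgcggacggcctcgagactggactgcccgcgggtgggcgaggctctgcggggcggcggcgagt

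Dbp, a D-box binding transcription factor whose RNA follows the clock closely, was at -2.57, -2.20, -2.07, -2.33 and -2.04 in the D0 mice. It was at -1.65, 0.46, -1.41, -1.54 and -1.46 in D1 and at -1.27, 0.05, -1.57 and 0.66 in D2. All 9 lower-dose mice lay above all 5 D0 mice, and mice 7, 12 and 15 lay far above the other 6. Such a separation upwards was found for 20 of 55545 probes with a value on every array (0.036%), among which both Dbp probes were, and a separation downwards for 11 (0.0198%). The difference of Dbp was 1.38 with a standard error of 0.404 and a 95% interval from 0.52 to 2.25 (limma, adjusted p = 1), and the second probe gave 1.48. At D1 alone it was 1.11 and at D2 alone 1.73.

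The difference of Dbp was also taken at each level of glandular content. It was 1.36 between 2 D0 and 3 lower-dose mice with a low glandular score and 1.42 between 3 D0 and 6 lower-dose mice with a high score, as plain differences of means. On the 4 array slides that held both groups it was 2.45, 1.89, 0.58 and 0.85, each from 3 mice. As all 9 lower-dose mice lay above all 5 D0 mice, every such split must give a positive difference. Only the sizes are therefore informative. Adipocyte markers were high in some of the same mice, with a mean over 6 genes of 1.32 in mouse 7, 2.50 in mouse 12 and 3.74 in mouse 15. They were also high, at 3.72, 2.45 and 3.09, in mice 2, 6 and 8, whose Dbp was not, and their part in the result was not tested. In lung, Dbp rose by 1.95 at the lower doses (95% interval 1.30 to 2.60, limma, adjusted p = 0.00436), and the difference between the tissues was 0.56 (95% interval -0.54 to 1.67, adjusted p = 1). The time of day of collection was not in the labels, and its part in any clock gene was not tested.

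**Figure D4:**
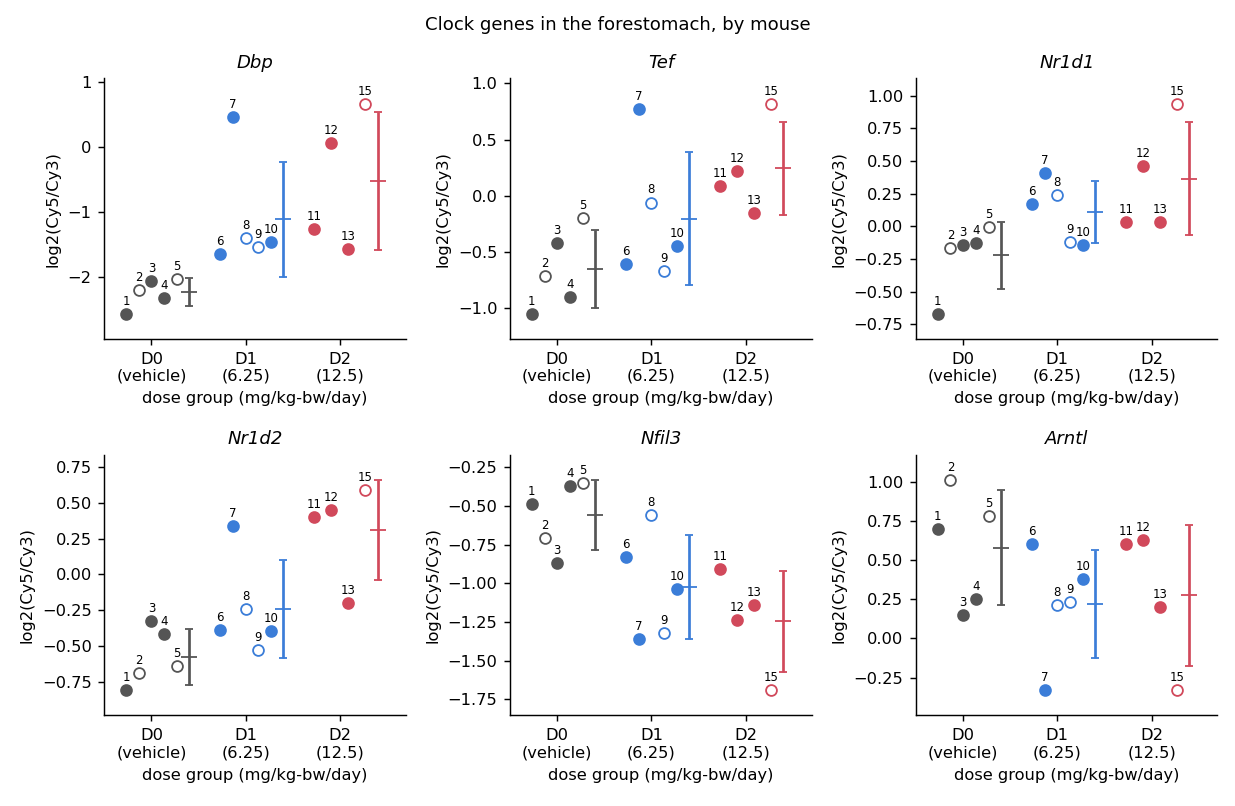
Log2(Cy5/Cy3) of clock genes in forestomach by dose group, with 1 numbered point per mouse, open points for arrays with a low glandular score and bars for mean ± SD. For Dbp all 9 lower-dose mice, from -1.65 to 0.66, lie above the 5 D0 mice, from -2.57 to -2.04, with mice 7, 12 and 15 at the top.

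Genes related to Dbp leaned the same way by smaller amounts. Tef, of the same family of transcription factors, differed by 0.66 (95% interval 0.12 to 1.19, limma, adjusted p = 1), and Hlf, the third member, by 0.38 (95% interval 0.07 to 0.69). As plain differences of means at a low and a high glandular score, Tef differed by 0.49 and 0.77 and Hlf by 0.10 and 0.57. Tef levels were between -1.05 and -0.20 in D0 and between -0.67 and 0.82 at the lower doses, with mice 7 and 15 again the highest. Nr1d1 and Nr1d2 encode the nuclear receptors that repress Arntl. Nr1d1 differed by 0.45 (95% interval 0.11 to 0.78, limma, adjusted p = 1) and Nr1d2 by 0.58 (95% interval 0.16 to 1.00). For Nr1d2 the D0 values were -0.81, -0.69, -0.33, -0.42 and -0.64 and those of D2 were 0.40, 0.45, -0.20 and 0.59. The D1 values ran from -0.53 to 0.34 and overlapped those of D0. Of the period genes, Per1 differed by 0.18. Per2, Per3, Ciart and Bhlhe41 were dim on all 5 D0 arrays and well above background on at most 3 lower-dose arrays, so no fold is given for them. Over the 6 evening genes that were bright the list median was 0.51.

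Of the 4 genes of the opposite phase, 2 lay above and 2 below D0, 0 were called, 2 had an unadjusted p under 0.05 and the median was -0.09. Over the alternatives this median ran from -0.45, among arrays with a low glandular score, to 0.12, among those with a high score. Over the 3 that were bright, without Npas2, the median was -0.33. Nfil3, the repressor that binds the same D-box letters as Dbp, was at -0.49, -0.71, -0.87, -0.37 and -0.35 in D0, at -0.83, -1.36, -0.56, -1.32 and -1.04 in D1 and at -0.91, -1.24, -1.14 and -1.69 in D2. The groups overlapped, and the difference was -0.56 (95% interval -0.91 to -0.22, limma, adjusted p = 1). Arntl, the partner of Clock, differed by -0.33 (95% interval -0.75 to 0.08), and Clock by 0.15. As plain differences of means, Arntl differed by -0.86 between 2 D0 and 3 lower-dose mice with a low glandular score. Between 3 D0 and 6 lower-dose mice with a high score it differed by -0.02. Npas2, a substitute for Clock, was well above background on 2 of 14 arrays, none of them of D0. In lung the evening list had 4 of 10 genes called (background 0.246% of probes) and a median of 0.60, and the opposite list a median of -0.37. The difference between the tissues was called for 0 of 10 evening genes (background 0.101% of probes), with a median of 0.29.

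The cell cycle was followed by genes of DNA replication and mitosis. Of 13 proliferation genes, 11 lay below D0 in the forestomach, 0 were called and the median was -0.24 (0.15 with median centring and 0.01 among the arrays with a low glandular score). In lung, by contrast, 12 lay above D0, 7 were called higher and the median was 0.65. Over all lung probes 0.246% were called, and 53.3% of the 20018 genes lay above D0. The lung response minus the forestomach response was called for 6 of 13 (background 0.101% of probes), with a median of 0.88. These 6 were Birc5, Mki67, Ccna2, Rrm2, Cdc20 and Cdk1. Ccna2, the cyclin of S phase, was between -2.25 and -1.71 in D0 forestomachs and between -2.99 and -1.86 at the lower doses, a difference of -0.36 (95% interval -0.71 to -0.004, limma, adjusted p = 1). In lung it rose by 1.19, and the difference between the tissues was 1.55 (limma, adjusted p = 0.000107). Mki67, the proliferation antigen, differed by -0.28 in forestomach and rose by 1.33 in lung. The cell-division and survival gene Birc5 gave a difference between the tissues of 1.85 (limma, adjusted p = 0.000107) on its brightest probe, while its other probes gave 0.50 and 0.65 and were not called. The carboxylesterase genes Ces2e, at 1.87, and Ces2c, at 1.83, also had 1 called probe each. Their probes that were not called were at 0.34 for Ces2e and at -0.02 and 0.89 for Ces2c. The called Ces2c probe lay between 0.42 and 1.26 on the 5 forestomach arrays of low glandular score. On the 9 arrays of high score it lay between 3.77 and 6.39. Its difference between the tissues ran from 0.94 to 2.26 over the alternatives.

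**Figure D5:**
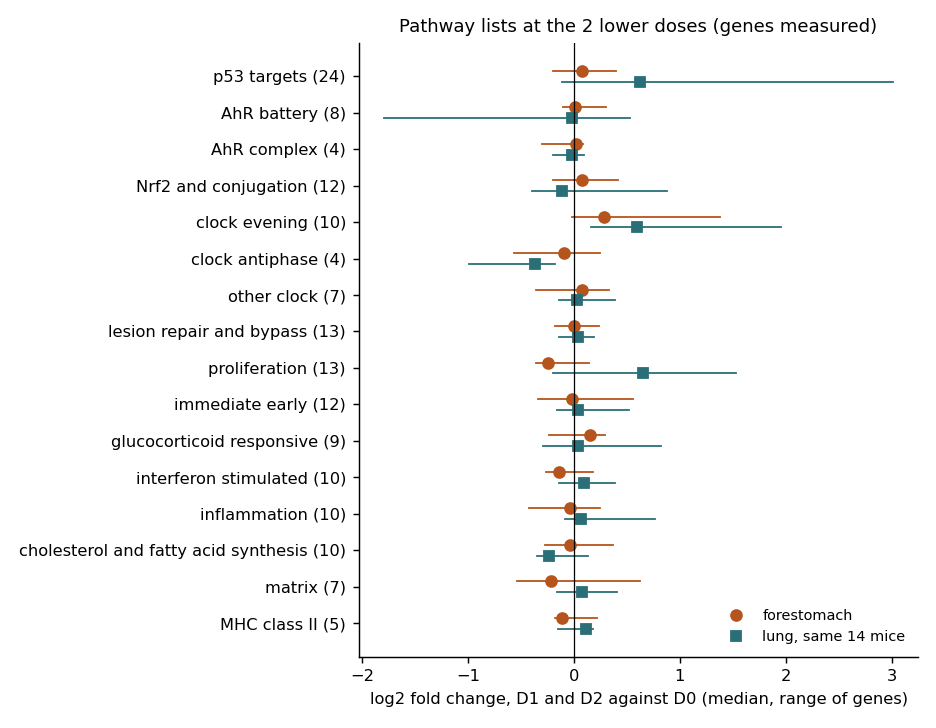
Median log2 fold change of the lower doses against D0 for 16 pathway lists in forestomach and lung, with lines for the range of the genes of each list and the number of genes measured in brackets. The lists stand at most 0.28 from 0 in forestomach, while p53 targets and proliferation stand at 0.62 and 0.65 in lung.

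The 10 genes with the smallest unadjusted p among bright probes were Rapgef3, Ash2l, Tatdn3, Pdcd2l, Ubqln2, H2ac15, Nfil3, Fra10ac1, Rabl2 and Dbp. Their differences were small apart from Dbp and Nfil3, from -0.39 to 0.36, and none passed the test. Rapgef3, an exchange factor that answers cyclic AMP, was at -1.61, -1.48, -1.70, -1.39 and -1.81 in D0 and between -2.09 and -1.84 at the lower doses. Its groups did not overlap, a separation downwards that 11 of 55545 probes (0.0198%) showed, and the difference was -0.39. As the gene was picked by its p in these data, the separation is not a separate result. Ash2l, a subunit of histone H3 methyltransferases, differed by 0.29 on 1 probe and by 0.06 on another. Ubqln2, a shuttle protein of the proteasome, differed by -0.32 and the histone gene H2ac15 by -0.38, and for H2ac15 the difference between the tissues was called, at 0.82 (limma, adjusted p = 0.0116), on this probe but not on its other, at 0.78 (adjusted p = 0.143). A probe without a gene symbol, designed on transcript XR_033677 and singled out here after its values were seen, differed by 1.04 (95% interval 0.52 to 1.55, limma, adjusted p = 1) and was called in lung at 1.21.

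The remaining pathway lists had 0 genes called in the forestomach, and none of their genes had an unadjusted p under 0.05. The list of Nrf2 targets and conjugation enzymes had 8 of 12 genes above D0 and a median of 0.08. Its largest differences were those of Mgst1, a microsomal glutathione transferase gene, at 0.42 (95% interval -0.35 to 1.18), and Hmox1, the haem oxygenase gene, at 0.28. For repair and bypass of bulky lesions 7 of 13 genes lay above D0 with a median of 0.0039. There the damage recognition gene Xpa was at 0.24 (95% interval -0.07 to 0.54) and Rev3l, a subunit of the bypass polymerase zeta, at -0.18. Immediate early genes had a median of -0.02, with Atf3 at 0.56 (95% interval -0.03 to 1.15) and Nr4a1 at 0.39. The other medians were 0.15 for glucocorticoid-responsive genes (Pdk4 0.29, Sgk1 0.24), -0.14 for interferon-stimulated genes (Isg15 -0.23, Ifit3 0.18) and -0.04 for inflammation genes (S100a9 0.25, Ccl2 -0.05). For sterol and fatty acid synthesis the median was -0.04, with Scd1 at 0.37 and Hmgcs1 at -0.27. For matrix genes it was -0.22, with Postn at 0.62 and Fn1 at -0.54, and for MHC class II genes -0.11, with H2-Aa at 0.22 and Cd74 at -0.15. Other clock genes, with Csnk1d at -0.36 and Rora at 0.33, had a median of 0.08.

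Markers of other cell types were likewise without a call, in all 13 lists. Adipocyte genes lay above D0 in 6 of 6 and had a median of 0.60, with the serine protease gene Cfd at 1.76 (95% interval -1.18 to 4.69) and the lipid droplet gene Cidec at 0.56. Their mean per mouse ranged from -0.03 to 3.72 in D0 and from 0.07 to 3.74 at the lower doses, so each group held mice with and without fat. Small intestine genes lay above D0 in 4 of 4, with a median of 0.57, and the fatty acid binding gene Fabp2 reached 6.99 in mouse 6 against at most 2.25 in D0. Mast cell genes had a median of 0.18, with Cpa3 at 0.70 (95% interval -0.54 to 1.94), and macrophage genes one of 0.25, with C1qa at 0.40 and Lyz2 at 0.34. Of the squamous lists, basal genes had a median of 0.02, with Trp63 at 0.61 and Col17a1 at 0.56, and differentiated genes one of 0.09, with Krt4 at 0.53 and Tgm3 at 0.37. Smooth muscle genes had a median of 0.05, with Myh11 at 0.14 and Des at 0.11. The gastric lists, after the score was taken into account, had medians of -0.03 for other parietal genes (Kcne2 0.36, Aqp4 -0.19), -0.08 for pit, neck and chief cells (Tff1 -0.48, Gkn3 0.34) and -0.09 for endocrine cells (Hdc -0.14, Ghrl -0.12). Exocrine pancreas was at -0.09 (Prss2 -0.59, Cel -0.10), B lymphocytes at -0.08 (Cd79b -0.33, Cr2 0.05) and T lymphocytes at -0.10 (Cd3e -0.26, Lck -0.10).

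It was also tested whether the lower-dose difference varied with glandular content, by the product of group and score. This term is a change in log2 fold change per log2 unit of score. The fold criterion of a call is not informative for it, as 0 of 22545 bright probes reached 1.5-fold per unit. With limma 0 probes had an adjusted p of at most 0.05, the smallest being 0.121. An unadjusted p under 0.05 was found for 6455 probes, or 11.6%, against 3.04% for the lower doses against D0. The score itself was associated with 419 probes beyond its own genes at an adjusted p of at most 0.05, and without it as a covariate the median standard error of bright probes was 0.142 in place of 0.134. Among the arrays with a high score only, 3 D0 against 6 lower-dose mice, 0 probes were called, and the same held among those with a low score, 2 against 3.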

How the data were processed

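Total RNA of 14 forestomachs (5 D0, 5 D1, 4 D2) was analysed, with the lungs of the same mice and 5 forestomach arrays of D3 for contrast. The authors deposited scanner files of Agilent Feature Extraction 10.7.3.1 with the median intensity of each of 62976 spots in both dyes, not normalized and without background subtraction. Per the file headers, a further column is the log10 ratio (Cy5 over Cy3) that the scanner software made from background-subtracted, dye-normalized signals. Finally, the authors deposited 1 value table with a log2 ratio for every probe, whose scale and centring it does not state. Set against the values computed here, its columns had slopes from 0.990 to 0.997, correlations from 0.995 to 0.998 and medians from -0.0415 to -0.0265, so it was read as log2(Cy5/Cy3) and used as an alternative. Tissue RNA was in Cy5 on every array, and with no dye swap a dye bias of a probe would enter its levels and cancel between groups.

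Median intensities were not background-corrected and were loess-normalized within arrays, as in the study's methods. Control spots were dropped, and replicate spots were averaged, which gave 55681 probes. Outlier flags emptied 136 values of the 14 arrays, and no spot was saturated. On each array, 30.1% to 60.8% of probes were well above background, and the number of arrays limits the precision. Symbols came from a RefSeq table of GRCm38.p6 by unversioned accession (26413 probes, 20018 genes), and 233 of 236 list genes were matched.

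R 4.3.3 with the packages data.table (version 1.17.8) and limma (version 3.58.1) was used for the fits, with the glandular score as a covariate in forestomach and 1 probe per gene, the brightest. A probe was called at an adjusted p of at most 0.05 and a fold change of at least 1.5. The study's package MAANOVA was not used. Values were named for 24 index genes, for the 10 genes with the smallest p since none was called, for the 2 largest differences of each other list among bright probes, and for tissue differences that were called. The members, lists and tests were chosen with earlier results of these data known. The fit was tested on simulated data with normal noise, no larger than the median spread of the probes, and a normally distributed score. The real score falls into a low and a high cluster, so that test does not give the power of the forestomach comparisons. The tissues were paired by mouse number, which the labels give in both, and the within-mouse correlation was 0.136. No block for mouse was in the tissue comparison, as the methods name none.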

Additional observations from a re-analysis of the deposited data

Results flagged for a closer look

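The lower-dose response of 44 genes differed between lung and forestomach by the limma test of the difference itself. Of these, 10 were among the genes that the rule for named genes picks. That rule takes the 5 largest called differences, namely Gdf15, Cdkn1a, Ces2e, Birc5 and Ces2c, so these were included by construction. All 56 called probes had the higher response in lung, so the direction of the 10 follows from that. Further called genes, such as Aen, stand in the report. The 10 were Cdkn1a (2.44), Gdf15 (3.19), Phlda3 (1.60), Trp53inp1 (1.10) and Bax (0.90) among the p53 targets, Ccna2 (1.55), Birc5 (1.85) and H2ac15 (0.82) among genes of cell division and chromatin, and the carboxylesterase genes Ces2e (1.87) and Ces2c (1.83), all as differences of log2 fold changes.

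Other values stood apart as 1 mouse far from the rest of its dose group in the forestomach, by the ratio of its gap to the range of the group. The rule flags about 1 in 20 groups by chance where values are independent and normally distributed. In all, 267 groups of a gene and dose were tested, of which 26 had such a mouse. These genes share the same mice, and the glandular genes fall into a low and a high cluster. The count therefore cannot be set against that rate. Of the index genes these were Cyp1a1 in D0 mouse 5 (3.61) and D2 mouse 11 (5.05), Dbp in D1 mouse 7 (0.46), Ccng1 (-0.01), Phlda3 (-0.85) and Nr1d1 (-0.67) in D0 mouse 1, Bax in D1 mouse 6 (-0.20) and Ciart in D2 mouse 15 (-0.44). The probe on XR_033677 was at 0.98 in D1 mouse 7, the mouse with the high Dbp.

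Several of these mice recur among the tissue markers. D1 mouse 6 was highest of its group for Krt4 (7.49), Myh11 (6.14), Fabp2 (6.99) and Lyz2 (1.42). D0 mouse 1 had the highest Aqp4 (3.81) and the lowest Des (3.48) of its group. D0 mouse 2 was apart for the adipocyte gene Cfd (6.80), for Scd1 (2.59) and for Csnk1d (0.08), and D1 mouse 8 for Scd1 (2.44). D2 mouse 15 lacked glandular stomach beside 3 D2 mice that had it, with Atp4a at 0.05, Atp4b at -0.18 and Cblif at 0.42. The other values were Atf3 (0.20) and Nr4a1 (-0.07) in D1 mouse 9, Isg15 in D1 mouse 10 (-1.31) and Cpa3 in D2 mouse 12 (4.52).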

How the results depend on the processing

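No probe was called in any alternative of the 6 forestomach comparisons, and none without any 1 mouse. The differences of Dbp, Nr1d1, Nr1d2, Tef, Hlf and Nfil3 kept their direction in each alternative. Those of the clock genes Arntl, Per1, Per3, Clock and Ciart changed sign in some. Over the 24 index genes and the 10 genes of smallest p, 75 of 985 gene values changed sign, none of them called, as did 37 of 256 list medians. Median centring in place of loess moved the median of bright probes by 0.25 in forestomach and 0.33 in lung. For "lower doses against D0, lung", the 137 probes became 220 with the Feature Extraction log ratio and 5 with median centring, and 103 to 147 without 1 mouse. For "lung minus forestomach response to lower doses", the 56 probes became 2 with median centring, 35 with an intensity trend, 91 with slide as a block, 15 with arrays of high glandular score only and 13 to 54 without 1 mouse (13, 25, 29 and 29 without D0 mice 4, 2, 3 and 5, 35 without D1 mouse 7 and 32 without D2 mouse 15). The causes were not tested. In the paired analysis of this comparison, mouse as a random replicate block gave 87 probes and as a fixed replicate block 66. Gdf15 was called in 15 of 15 alternatives and Cdkn1a in 14, Ccng1 in 2 and Mdm2 in 0. Without 1 mouse the difference was called in 11 of 14 fits for H2ac15, 10 for Bax, 9 for Phlda3 and 8 each for Ces2e and Ces2c. Dim probes limit Cyp1a1, Per2, Per3, Ciart and Npas2. The comparison among arrays of low glandular score was added after the data were seen, and slide and scan day could not be blocks for D3, as the averaged mouse 18 lay on 2 slides.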

Other observations

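The 3 mice with the highest Dbp in forestomach also had the highest Dbp in lung among the 9 lower-dose mice, with 0.46 and 1.17 in mouse 7, 0.05 and 1.95 in mouse 12, and 0.66 and 1.39 in mouse 15 (forestomach and lung, log2(Cy5/Cy3)). The same mice had the lowest lung Arntl of the 14, at -1.01, -1.23 and -1.26, while their forestomach Arntl was -0.33, 0.63 and -0.33. The means over the 10 evening clock genes in forestomach, Dbp among them, were 0.14, 0.01 and 0.31 in these mice. They were between -0.80 and -0.28 in the other 11. As these mice were chosen by their Dbp, part of this gap was fixed by the choice. No test was run on these values, since the mice were chosen by them.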
